A study of Oryza sativa with 18 samples.

Results

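The genes described here are 8 rice loci of abscisic acid (ABA) metabolism, out of 39049 genes that have a value. They were listed by locus identifier, with earlier results of these data known: 4 are labelled 9-cis-epoxycarotenoid dioxygenases (NCED), 1 encodes zeaxanthin epoxidase and 3 encode ABA 8'-hydroxylases. All 8 reached 1 FPKM in at least 1 column, which is the filter that left 20568 genes for testing.

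ABA is the hormone that closes stomata and turns on protective genes when leaves lose water. It is made from carotenoids of the plastid: zeaxanthin epoxidase makes violaxanthin, and NCED enzymes then cleave 9-cis-epoxycarotenoids into xanthoxin, the step that commits carbon to the hormone. A dehydrogenase and an aldehyde oxidase of the cytosol turn xanthoxin into ABA. Breakdown starts with the 8'-hydroxylases, cytochrome P450 enzymes of the CYP707A family that lead ABA towards phaseic acid.

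The 3 genotypes were H471, a drought-tolerant introgression line that carries chromosome fragments of P28 in the HHZ background, P28, the drought-tolerant indica donor, and HHZ, the drought-sensitive indica recurrent parent. H471 is a single introgression line. Top leaves were taken at the tillering stage from greenhouse plants under well-watered control conditions, after 1 day of drought at 15% soil water and after 3 days of drought at 10% soil water. Each genotype and condition had 2 libraries, and the deposited value of a gene is a single FPKM for both, so 18 libraries gave 9 columns. FPKM is a read count divided by gene length and library size. It allows levels of different genes to be set side by side, but a difference between a pair of columns has no SD, n or p-value here.

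Differences were taken on log2(FPKM + 1), which understates changes of weakly expressed genes. limma modelled the 9 columns additively, by genotype and by condition, and a gene was called at a Benjamini-Hochberg adjusted p under 0.05 over all 20568 genes. In this model the genotypes stand in as replicates for a drought difference and the conditions as replicates for a difference between genotypes, which leaves 4 residual degrees of freedom. Plants are not the replicates behind these p-values. Single pairs of columns were described by a size rule, a difference of at least 1 upwards or downwards.

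Summed FPKM lay between 816200 and 984300 per column, and the 10 most abundant genes held 16.85% to 26.73% of it. The 6 leaf marker genes were for rubisco small subunit, rubisco activase and light-harvesting proteins. They summed to 8333 to 10268 FPKM under control conditions, 24217 to 33248 after 1 day and 3085 to 4439 after 3 days. The 6 genes did not move together. After 1 day limma called 3 higher and 0 lower, against 27.4% and 30.8% of all genes. Rubisco activase LOC_Os11g47970 had a difference of 5.34. The 3 rubisco small subunit genes were not called, at 0.21 to 0.45. After 3 days 4 of the 6 were called lower than control, against 30.1% of all genes, among them the 3 small subunit genes. The 2 called higher, against 27% of all genes, were LOC_Os11g47970 at 0.96 and the light-harvesting gene LOC_Os09g17740 at 0.73. The 2 root markers, both silicon transporters, summed to 7.47 to 18.9 FPKM over all columns, with LOC_Os03g01700 listed at 0 in every column but 1. The 2 glutelin seed markers summed to 52.9 FPKM in HHZ after 1 day and to 3.61 to 5.52 FPKM in the other 8 columns. Fewer cells of a type and less RNA per cell cannot be told apart in these leaf samples.

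Gene symbols in the file are those of the best Arabidopsis match. For LOC_Os02g47510 that match is CCD4, also called NCED4, a carotenoid cleavage dioxygenase that in Arabidopsis is known for carotenoid breakdown rather than for the committed ABA step. The file therefore goes against the NCED label of this locus, and sums over the dioxygenases are given with and without it. LOC_Os03g44380 and LOC_Os12g42280 both matched Arabidopsis NCED3, the main drought-induced NCED of that species, and LOC_Os07g05940 matched NCED9. RefSeq synonyms of the same family on the same chromosome named 5 of the 8 loci: OsNCED3 for LOC_Os03g44380, OsZEP1 for LOC_Os04g37619, and OsABA8ox1, OsABA8ox2 and OsABA8ox3 for LOC_Os02g47470, LOC_Os08g36860 and LOC_Os09g28390.

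Under control conditions the levels of the 8 genes ran from the epoxidase LOC_Os04g37619 (152 to 222 FPKM) over LOC_Os02g47510 (72.6 to 80.4) and LOC_Os08g36860 (27.8 to 31.3) to a group of 3 whose ranges overlapped, LOC_Os02g47470, LOC_Os09g28390 and LOC_Os12g42280 (4.30 to 8.62), with LOC_Os03g44380 (0.826 to 1.45) and LOC_Os07g05940 (0.174 to 0.277) below them. After 1 day LOC_Os02g47510 (402 to 481) stood above the epoxidase (292 to 316). LOC_Os07g05940 (35.9 to 91.4) then overlapped LOC_Os08g36860 (63.4 to 71.4), and LOC_Os12g42280 (4.43 to 6.56) was the lowest. After 3 days the epoxidase (249 to 301) led again, and LOC_Os07g05940 (0.569 to 1.50) and LOC_Os12g42280 (0.962 to 1.26) overlapped at the low end.

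After 1 day of drought, 7 of the 8 genes rose in the fit over the 3 genotypes, and none fell. Over all genes tested, limma called 27.4% higher and 30.8% lower. The median difference of the 8 genes was 1.89, against -0.02 over all genes tested. Of the 8, LOC_Os12g42280 was the gene not called. By the size rule, 5 of the 8 were higher in all 3 genotypes, against 8.81% of all genes, and 0 were lower, against 8.88%. The 5 genes were the dioxygenases LOC_Os02g47510, LOC_Os03g44380 and LOC_Os07g05940 and the hydroxylases LOC_Os02g47470 and LOC_Os09g28390. The hydroxylase LOC_Os08g36860 narrowly missed the rule in HHZ, at 0.995, and passed it in H471 (1.33) and P28 (1.16).

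**Figure D1:**
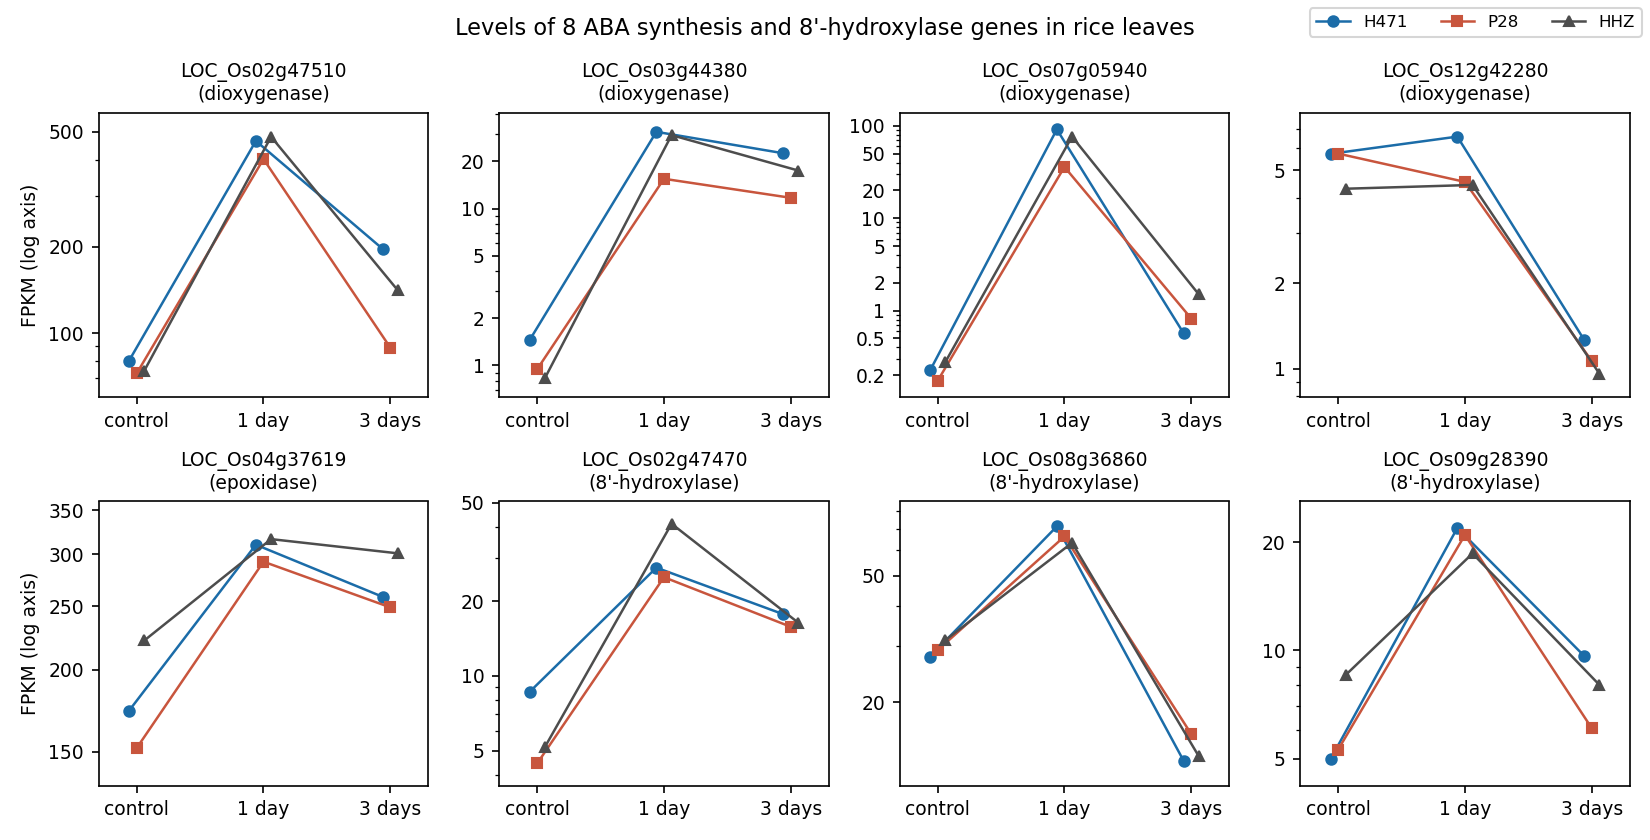
FPKM (log axis) of the 8 genes under control conditions and after 1 and 3 days of drought, with 1 panel per gene and 1 line per genotype. Each point is 1 pooled value. LOC_Os07g05940 stood at 35.9 to 91.4 FPKM after 1 day and at or below 1.50 FPKM in every other condition, while LOC_Os12g42280 dropped to 0.962 to 1.26 FPKM after 3 days.

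Among the dioxygenases, LOC_Os07g05940 was close to silent in watered leaves and showed the largest difference of the 8 genes after 1 day. It had 0.225, 91.4 and 0.569 FPKM in H471 under control conditions, after 1 day and after 3 days. The corresponding levels were 0.174, 35.9 and 0.822 FPKM in P28 and 0.277, 76.3 and 1.50 FPKM in HHZ. No value after 1 day overlapped a value of another condition. In the fit it rose by 5.71 after 1 day (SE 0.28, adjusted p = 7.06e-06, limma). After 3 days the difference from control was 0.65 (SE 0.28, adjusted p = 0.0886, limma), which did not pass, and it was 1.62 (adjusted p = 0.00606) where 0.1 was added to FPKM in place of 1. Its rank among the tested genes was between the 5.16th and the 6.45th percentile under control conditions and between the 80.3rd and the 93.0th after 1 day.

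LOC_Os03g44380 (OsNCED3) rose after 1 day and was still high after 3 days. H471 leaves had 1.45, 30.8 and 22.5 FPKM under control conditions, after 1 day and after 3 days. P28 leaves had 0.945, 15.5 and 11.7 FPKM over the same conditions, and HHZ leaves had 0.826, 29.4 and 17.5 FPKM. All drought values lay above all control values, while the ranges after 1 and 3 days overlapped. The fitted differences from control were 3.61 after 1 day (SE 0.18, adjusted p = 6.46e-06) and 3.10 after 3 days (SE 0.18, adjusted p = 1.90e-05, limma). As a ratio of FPKM, the level after 1 day over control was 21.3 in H471, 16.4 in P28 and 35.5 in HHZ, and the level after 3 days over control was 15.6 in H471, 12.4 in P28 and 21.1 in HHZ.

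LOC_Os12g42280, the other match of Arabidopsis NCED3, moved in another way. In H471 it had 5.70 FPKM under control conditions, 6.56 after 1 day and 1.26 after 3 days. In P28 the values were 5.72, 4.54 and 1.06 FPKM, and in HHZ they were 4.30, 4.43 and 0.962 FPKM. Control and 1-day values overlapped, and all 3-day values lay below both. The fitted difference after 1 day was -0.02 (SE 0.13, adjusted p = 0.890, limma), and its sign turned to 0.01 under median-of-ratios scaling and to 0.10 without P28. After 3 days the gene fell by 1.57 relative to control (SE 0.13, adjusted p = 7.43e-05, limma).

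LOC_Os02g47510, the CCD4 match, was the most abundant of the 4 dioxygenases in every column. H471 leaves had 80.4, 465 and 196 FPKM under control conditions, after 1 day and after 3 days, P28 leaves had 72.6, 402 and 89.2 FPKM, and HHZ leaves had 74.2, 481 and 141 FPKM. The 3 conditions did not overlap. Its rank reached the 98.7th to the 99.0th percentile of the tested genes after 1 day. It rose by 2.55 after 1 day (SE 0.19, adjusted p = 3.64e-05) and by 0.83 after 3 days (SE 0.19, adjusted p = 0.00769, limma). The 3-day call was lost without H471 (0.60, adjusted p = 0.0547) and without HHZ (0.79, adjusted p = 0.0964), in fits with 2 residual degrees of freedom.

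LOC_Os04g37619, the zeaxanthin epoxidase upstream of these enzymes, was abundant in all leaves and changed less. Its FPKM was 173 under control conditions, 310 after 1 day and 258 after 3 days in H471, 152, 292 and 249 in P28, and 222, 316 and 301 in HHZ. Drought values lay above all control values. It rose by 0.76 after 1 day (SE 0.096, adjusted p = 0.000500) and by 0.57 after 3 days (SE 0.096, adjusted p = 0.00215, limma). No pair of drought and control columns of this gene passed the size rule, and in every column it stood above the 96.5th percentile.

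The 3 hydroxylases all rose after 1 day and then separated. LOC_Os02g47470 (OsABA8ox1) had 8.62, 27.4 and 17.8 FPKM in H471 under control conditions, after 1 day and after 3 days, against 4.44, 25.0 and 15.8 FPKM in P28 and 5.16, 41.1 and 16.4 FPKM in HHZ. Its 3 conditions did not overlap. It rose by 2.20 after 1 day (SE 0.21, adjusted p = 0.000145) and by 1.36 after 3 days (SE 0.21, adjusted p = 0.00158, limma).

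LOC_Os08g36860 (OsABA8ox2) was the most abundant hydroxylase in watered leaves. It had 27.8, 71.4 and 13.1 FPKM in H471 under control conditions, after 1 day and after 3 days. P28 leaves had 29.1, 66.4 and 15.9 FPKM, and HHZ leaves had 31.3, 63.4 and 13.5 FPKM. This gene was higher after 1 day and lower after 3 days than under control conditions, with no overlap between conditions. The rise after 1 day was 1.16 (SE 0.096, adjusted p = 6.60e-05), and after 3 days it fell by 1.01 relative to control (SE 0.096, adjusted p = 0.000152, limma).

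LOC_Os09g28390 (OsABA8ox3) had 4.98, 21.9 and 9.65 FPKM in H471 under control conditions, after 1 day and after 3 days, 5.30, 20.9 and 6.08 FPKM in P28, and 8.54, 18.6 and 8.02 FPKM in HHZ. Values after 1 day lay above all others, while control and 3-day values overlapped. The gene rose by 1.59 after 1 day (SE 0.20, adjusted p = 0.000503, limma). After 3 days its difference from control was 0.31 (SE 0.20, adjusted p = 0.231, limma). It and LOC_Os08g36860 share the best match CYP707A4, and reads of similar sequence may be divided between such relatives.

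**Figure D2:**
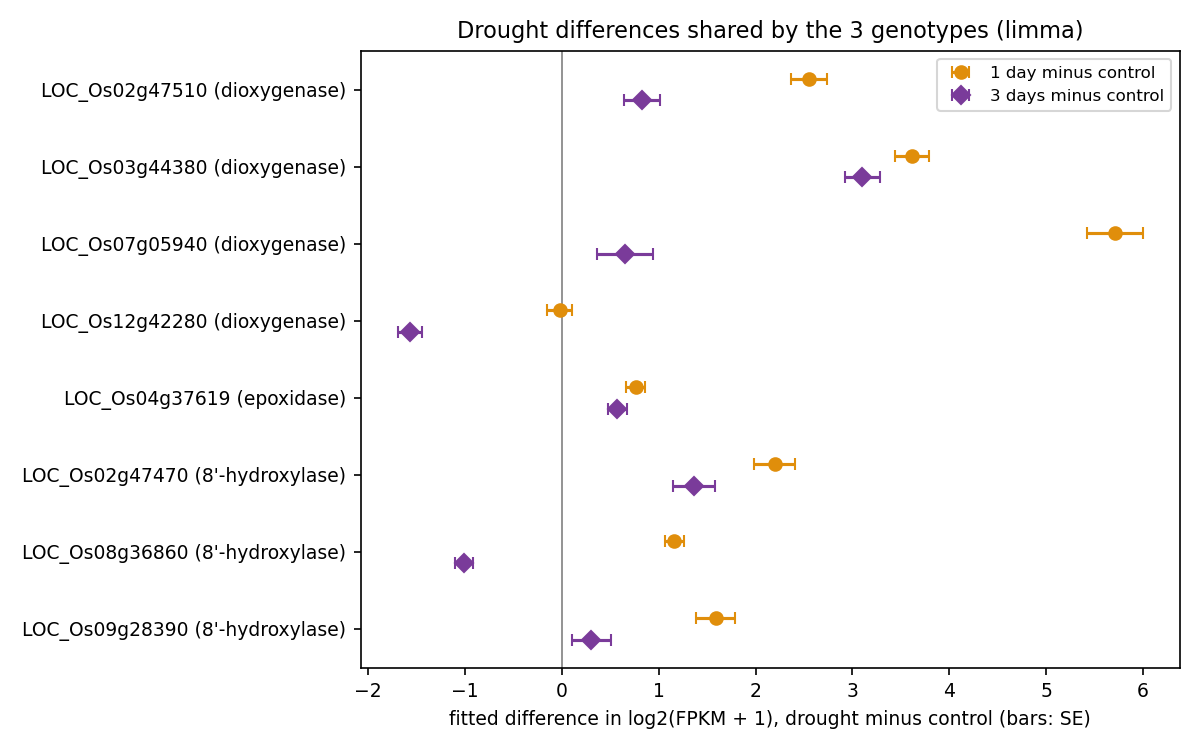
Fitted differences in log2(FPKM + 1) of the 8 genes, drought minus control, after 1 day (circles) and 3 days (diamonds), with bars of 1 SE from limma over 3 genotypes. After 1 day 7 genes lie right of 0, and after 3 days LOC_Os12g42280 at -1.57 and LOC_Os08g36860 at -1.01 lie left of it.

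After 3 days, 4 of the 8 genes were called higher than control, LOC_Os02g47510, LOC_Os03g44380, LOC_Os02g47470 and LOC_Os04g37619, and 2 were called lower, LOC_Os12g42280 and LOC_Os08g36860. Over all genes tested, limma called 27% higher and 30.1% lower after 3 days, so the share called lower was near that of all genes. The median difference of the 8 genes was 0.61, against -0.03 over all genes tested. Only LOC_Os03g44380 passed the size rule upwards in all 3 genotypes, against 6.14% of all genes, and only LOC_Os12g42280 passed it downwards, against 8.33%. With 0.1 added to FPKM in place of 1, 3 of the 8 passed it upwards. The number of the 8 genes called after 3 days was 5 to 6 with a genotype left out.

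Between 1 and 3 days of drought the genes came down again. The 3-day values were called lower than the 1-day values for 7 of the 8 genes, and higher for 0, while limma called 24.4% of all genes lower and 25.3% higher. The median of the 8 genes was -1.41, against 0.01 over all genes. LOC_Os07g05940 fell by 5.06 (SE 0.28, adjusted p = 1.59e-05) and LOC_Os08g36860 fell by 2.17 (SE 0.096, adjusted p = 5.68e-06, limma). LOC_Os02g47510 fell by 1.72 (adjusted p = 0.000305), LOC_Os12g42280 fell by 1.54 (adjusted p = 8.53e-05) and LOC_Os09g28390 fell by 1.28 (adjusted p = 0.00183, limma). LOC_Os04g37619 had a difference of -0.19 (SE 0.096, adjusted p = 0.150, limma), which did not pass.

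The smaller 3-day against 1-day differences were less firm. LOC_Os03g44380 fell by 0.51 (SE 0.18, adjusted p = 0.0482, limma). That call was lost without H471 (-0.55, adjusted p = 0.188) and without HHZ (-0.41, adjusted p = 0.197). It was lost too with 0.1 added to FPKM (adjusted p = 0.0592), with no filter (adjusted p = 0.0771) and without the trend (adjusted p = 0.0574). LOC_Os02g47470 fell by 0.84 (SE 0.21, adjusted p = 0.0158, limma), and its call was lost without P28 (-0.94, adjusted p = 0.0951) and without HHZ (-0.61, adjusted p = 0.101).

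The dioxygenase that held most of the summed level differed between conditions. With the CCD4 match LOC_Os02g47510 left out, the other 3 dioxygenases summed to 7.38, 129 and 24.3 FPKM in H471 under control conditions, after 1 day and after 3 days, to 6.84, 55.9 and 13.6 FPKM in P28, and to 5.40, 110 and 19.9 FPKM in HHZ. LOC_Os12g42280 made up 77.3% to 83.6% of this sum under control conditions. After 1 day LOC_Os07g05940 made up 64.2% to 71.0%, and after 3 days LOC_Os03g44380 made up 86.1% to 92.5%. The same gene led in all 3 genotypes in each condition.

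With LOC_Os02g47510 included, the 4 dioxygenases summed to 87.8, 594 and 221 FPKM in H471, 79.4, 458 and 103 FPKM in P28, and 79.6, 591 and 161 FPKM in HHZ over the same conditions. LOC_Os02g47510 alone was 78.3% to 93.2% of that sum, so the total followed the CCD4 match.

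The hydroxylases shifted as well. They summed to 41.4, 121 and 40.5 FPKM in H471 under control conditions, after 1 day and after 3 days, to 38.9, 112 and 37.7 FPKM in P28, and to 45.0, 123 and 37.9 FPKM in HHZ. The 3-day sums lay slightly below the control sums in H471 and P28 and further below in HHZ, although LOC_Os02g47470 was higher. The gaps in all 3 genotypes rest on single pooled values and were not tested. LOC_Os08g36860 held 67.1% to 74.9% of the sum under control conditions, 51.5% to 59.2% after 1 day and 32.3% to 42.1% after 3 days. LOC_Os02g47470 held 11.4% to 20.8% under control conditions and 41.8% to 43.9% after 3 days.

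**Figure D3:**
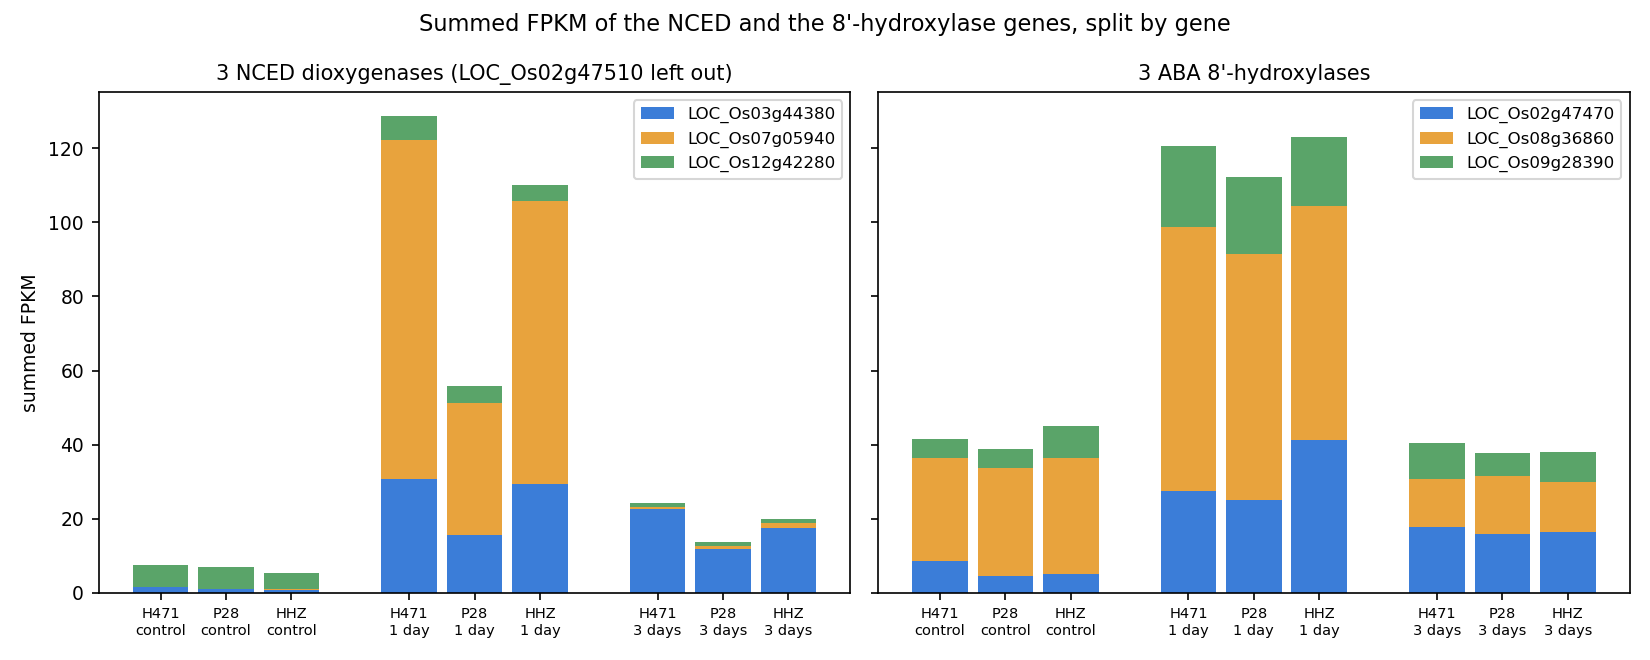
Summed FPKM of 3 NCED dioxygenases without LOC_Os02g47510 (left) and of the 3 ABA 8'-hydroxylases (right) in each genotype and condition, with each bar split by gene. After 1 day the dioxygenase sum was 55.9 FPKM in P28, against 129 in H471 and 110 in HHZ, while the hydroxylase sums were 112 to 123 FPKM.

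The ratio of the sums, the 3 dioxygenases over the 3 hydroxylases, was below 0.2 in every control column, at 0.178 in H471, 0.176 in P28 and 0.120 in HHZ. In 1-day leaves it was 1.07 in H471, 0.497 in P28 and 0.894 in HHZ, and 3-day leaves had ratios of 0.601 in H471, 0.360 in P28 and 0.525 in HHZ. With LOC_Os02g47510 counted in, H471 had ratios of 2.12 (control), 4.92 (1 day) and 5.45 (3 days), P28 had 2.04, 4.08 and 2.72, and HHZ had 1.77, 4.80 and 4.24. The ratio of H471 was thus higher after 3 days than after 1 day with this locus and lower without it. These are ratios of transcript levels, and ABA itself was not measured in the files used here.

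Circadian clock genes differed in the same contrasts. After 1 day 3 of the 8 clock genes listed were called higher and 5 lower, against 27.4% and 30.8% of all genes. After 3 days 6 were called higher and 1 lower, against 27% and 30.1% (limma). For 3 days against 1 day, 5 were called higher and 3 lower, against 25.3% and 24.4% of all genes. LHY (LOC_Os08g06110), a morning gene of the clock, had 1.49 to 2.08 FPKM under control conditions, 353 to 426 after 1 day and 10.6 to 17.3 after 3 days. Its evening partner TOC1 (LOC_Os02g40510) had 77.0 to 86.6 FPKM under control conditions, 3.59 to 5.86 after 1 day and 94.8 to 104 after 3 days. The list summed to 1468 to 1526 FPKM under control conditions, 1306 to 1464 after 1 day and 1686 to 1925 after 3 days, and none of its genes was at 0. The hour of sampling is not in the labels, so hour and drought cannot be told apart here. The part of the hour in the differences of the 8 ABA genes was not tested.

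No difference of the 8 genes between H471 and HHZ was called in the fit over the 3 conditions. limma called 46 of all genes, 0.224%. An unadjusted p under 0.05 was found for 1386 of the 20568 genes tested and for 1 of the 8. That gene was LOC_Os12g42280, higher in H471 than in HHZ in all 3 conditions with a fitted difference of 0.34 (SE 0.13, adjusted p = 0.653, limma). The fitted differences of the 8 genes lay between -0.20 and 0.34. By the size rule 0 of the 8 genes differed in any condition, against 2.46% of all genes under control conditions, 3.41% after 1 day and 3.4% after 3 days. With 0.1 added to FPKM in place of 1, 1 of the 8 passed it after 3 days.

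Some single columns of H471 and HHZ lay further apart. LOC_Os02g47470 had 8.62 FPKM in H471, against 5.16 in HHZ, under control conditions, and 27.4 FPKM in H471, against 41.1 in HHZ, after 1 day. Its difference after 1 day of drought was 1.56 in H471 and 2.77 in HHZ. LOC_Os09g28390 went the other way, with 4.98 FPKM in H471, against 8.54 in HHZ, under control conditions, and a 1-day difference of 1.94 in H471 and 1.04 in HHZ. LOC_Os07g05940 after 3 days was at 0.569 FPKM in H471 and 1.50 FPKM in HHZ. With 1 pooled value per column, none of these differences in response was tested.

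Between P28 and HHZ, 0 of the 8 genes were called, against 6.64% of all genes (limma). An unadjusted p under 0.05 was found for 4147 of the 20568 genes tested and for 2 of the 8, which is near the share of all genes. They were LOC_Os03g44380 at -0.44 (SE 0.18, adjusted p = 0.222) and LOC_Os04g37619 at -0.31 (SE 0.096, adjusted p = 0.126, limma). LOC_Os04g37619 was lower in P28 in all 3 conditions, and LOC_Os03g44380 in the 2 drought conditions. The fitted differences of the 8 genes lay between -0.55 and 0.15. A p that misses the threshold does not show that the genotypes had equal levels.

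By the size rule, LOC_Os07g05940 was the 1 gene of the 8 that differed between P28 and HHZ, after 1 day, with 35.9 FPKM in P28 and 76.3 FPKM in HHZ (difference -1.07). The size rule took 6.76% of all genes in that comparison. It took 0 of the 8 under control conditions, against 7.25% of all genes, and 0 after 3 days, against 6.24%. LOC_Os03g44380 after 1 day had 15.5 FPKM in P28 and 29.4 FPKM in HHZ, a difference of -0.88. LOC_Os02g47510 after 3 days had 89.2 FPKM in P28 and 141 FPKM in HHZ, a difference of -0.65.

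**Figure D4:**
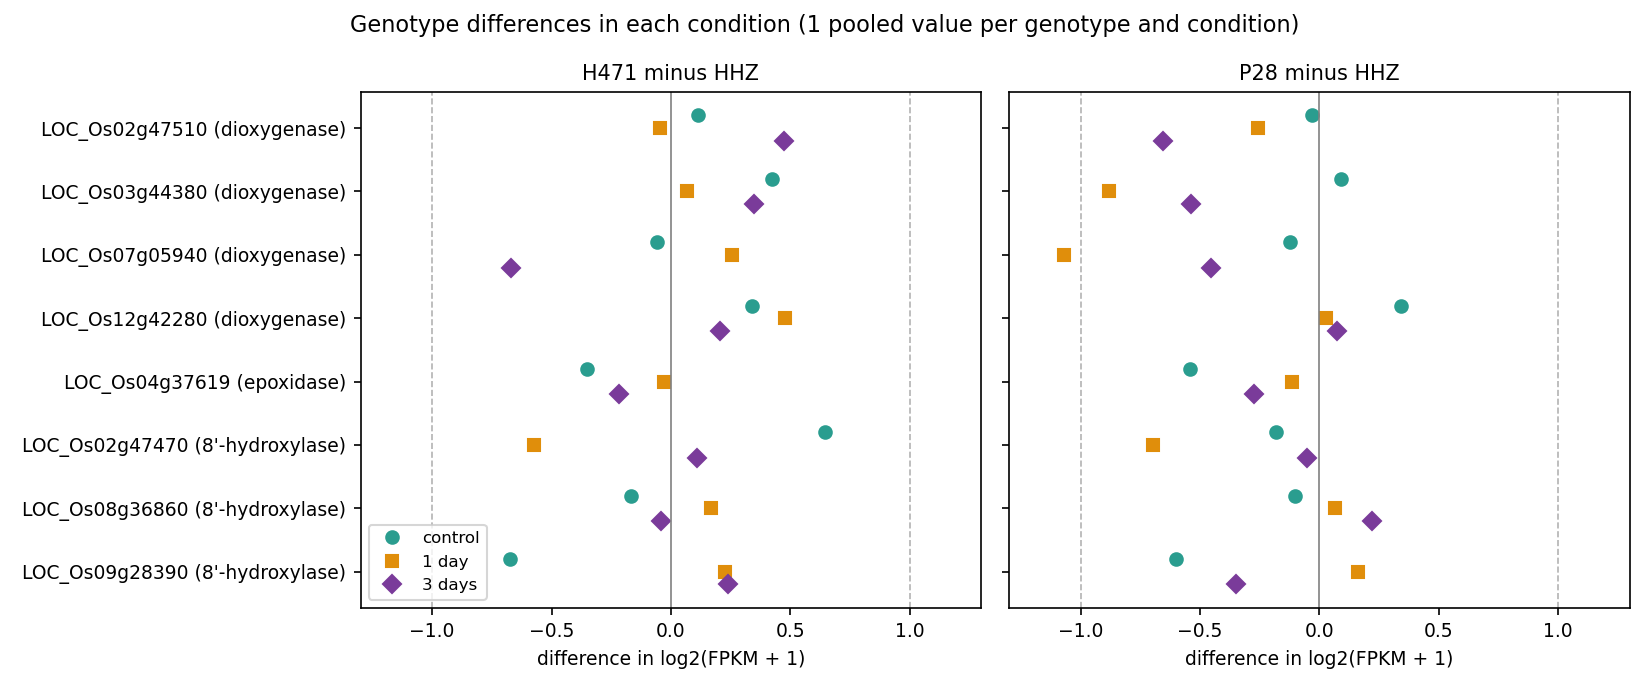
Differences in log2(FPKM + 1) of the 8 genes, H471 minus HHZ (left) and P28 minus HHZ (right), under control conditions and after 1 and 3 days of drought, with 1 pooled value behind each side. Dashed lines mark the size rule of 1, and LOC_Os07g05940 in P28 after 1 day, at -1.07, is the point beyond it.

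The spread among the 3 genotypes differed from gene to gene. For LOC_Os08g36860 the highest genotype was 1.13 times the lowest under control conditions, 1.13 times after 1 day and 1.21 times after 3 days. The median ratio of all genes with at least 5 FPKM in the 3 genotypes was 1.19 under control conditions, 1.19 after 1 day and 1.21 after 3 days, and the 90th percentile was 1.61, 1.60 and 1.68. Where a gene of the 8 had at least 5 FPKM in the 3 genotypes and passed that percentile, the lowest genotype was P28. These were LOC_Os07g05940 (2.55), LOC_Os03g44380 (1.99) and LOC_Os02g47470 (1.64) after 1 day, and LOC_Os02g47510 (2.20) and LOC_Os03g44380 (1.92) after 3 days. How often P28 was the lowest among all genes past that percentile was not counted, so this is not shown to be particular to the 8 genes. Over all genes, limma called 1366 for P28 against HHZ and 46 for H471 against HHZ. Where the lowest genotype had less than 5 FPKM, it varied. It was H471 for LOC_Os07g05940 after 3 days (2.63) and for LOC_Os09g28390 under control conditions (1.71), HHZ for LOC_Os03g44380 (1.75) and P28 for LOC_Os02g47470 (1.94) under control conditions.

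The list of carotenoid synthesis holds genes of the path to zeaxanthin and of the lutein branch, which leads away from it. Of its 14 genes, 8 rose and 1 fell after 1 day (limma), against 27.4% and 30.8% of all genes, with a list median of 1.02, against -0.02 over all genes. After 3 days 6 rose and 3 fell, against 27% and 30.1% of all genes, with a median of 0.08, against -0.03. Phytoene synthase makes the first carotenoid of the pathway. Its locus LOC_Os12g43130 had 113 to 151 FPKM after 1 day, against 5.72 to 7.26 FPKM under control conditions, and rose by 4.11 (SE 0.23, adjusted p = 1.02e-05), but after 3 days it fell by 1.27 relative to control (adjusted p = 0.00283). LOC_Os09g38320, also phytoene synthase, rose by 3.95 after 1 day and by 2.91 after 3 days (adjusted p = 6.57e-07 and 3.70e-06, limma). At the other end, phytoene desaturase (LOC_Os03g08570) fell by 0.42 after 1 day (adjusted p = 0.00509), and the zeta-carotene isomerase match LOC_Os12g21710 had a difference of -0.42 (adjusted p = 0.0525). After 3 days the beta-carotene hydroxylase LOC_Os03g03370, which makes zeaxanthin in Arabidopsis, rose by 1.78 (adjusted p = 0.000326), while LOC_Os10g39930, the match of LUT1, a hydroxylase of the lutein branch, fell by 0.80 (adjusted p = 0.000780, limma).

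Downstream of the epoxidase, ABA4 (LOC_Os01g03750), which Arabidopsis needs for neoxanthin, rose by 1.40 after 1 day (SE 0.16, adjusted p = 0.000271) and by 0.51 after 3 days (adjusted p = 0.0268, limma). Its 1-day levels were 27.6 FPKM in H471, 13.9 FPKM in P28 and 27.6 FPKM in HHZ. Violaxanthin de-epoxidase (LOC_Os04g31040), which runs the epoxidase reaction backwards, had a difference of -0.08 after 1 day (adjusted p = 0.556) and fell by 0.65 after 3 days (adjusted p = 0.00222, limma).

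The fitted differences of the cytosolic steps lay between -0.93 and 1.45. Of 6 genes, 2 rose and none fell after 1 day, against 27.4% and 30.8% of all genes, and 1 rose and 2 fell after 3 days, against 27% and 30.1% (limma). The share of 2 in 6 is near that of all genes. The xanthoxin dehydrogenase match ABA2 (LOC_Os03g59610) rose by 0.41 after 1 day (adjusted p = 0.0133) and fell by 0.59 after 3 days (adjusted p = 0.00274). The aldehyde oxidase LOC_Os03g57690 rose by 0.92 after 1 day (adjusted p = 0.00120), and LOC_Os10g04860 of the same family had a difference of 0.58 (adjusted p = 0.0933). After 3 days the aldehyde oxidase LOC_Os07g18120 rose by 1.45 (adjusted p = 0.000930), and ABA3 (LOC_Os06g45860), which activates the cofactor of aldehyde oxidases, fell by 0.93 (adjusted p = 0.000483, limma). Aldehyde oxidase genes are alike in sequence, so reads may be divided between them.

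**Figure D5:**
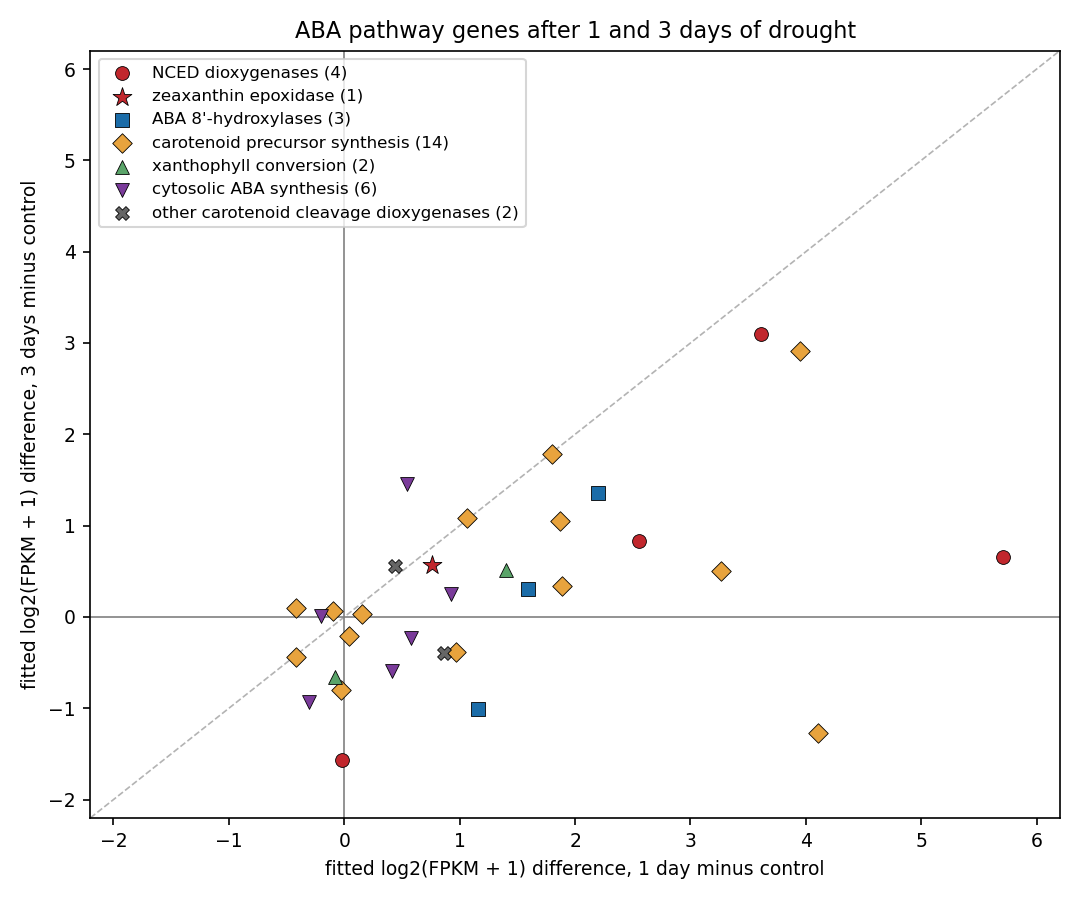
Fitted differences in log2(FPKM + 1) from control after 1 day (x axis) and after 3 days (y axis) for the 8 genes and 4 lists of pathway genes, with the number of genes tested in brackets and a dashed line of equal difference. LOC_Os07g05940 lies furthest right, at 5.71 after 1 day and 0.65 after 3 days.

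Of 5 listed genes for other carotenoid cleavage dioxygenases, 4 had a value and 2 of these passed the filter, while LOC_Os01g54270 had no value. CCD1 (LOC_Os12g44310), which cleaves carotenoids to volatile products, had 123 to 362 FPKM over the 9 columns, rose by 0.87 after 1 day (adjusted p = 0.000551) and fell by 0.40 after 3 days (adjusted p = 0.0200, limma). LOC_Os12g24800, the other listed CCD4 match beside LOC_Os02g47510, was at or below 0.0380 FPKM in every column. Further rows matching NCED9, LOC_Os04g04230 and LOC_Os08g28410, were listed at 0 in all columns.

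Dehydrins of the RAB16 group, protective proteins whose genes are induced by ABA in rice, were higher in drought. All 4 were called higher after 1 day, against 27.4% of all genes, and after 3 days, against 27% (limma). After 1 day LOC_Os11g26790 had 1211 FPKM in H471, 556 FPKM in P28 and 749 FPKM in HHZ, and after 3 days it had 407 FPKM in H471, 325 FPKM in P28 and 558 FPKM in HHZ. It was at or below 0.835 FPKM in every control column and rose by 9.21 after 1 day and by 8.29 after 3 days (adjusted p = 8.97e-07 and 3.21e-06, limma). LOC_Os11g26780 rose by 8.99 after 1 day and LOC_Os11g26760 by 4.34. LOC_Os11g26750 was listed at 0 in control leaves of H471 and P28 and had 21.1 FPKM in P28 after 1 day, against 69.7 FPKM in HHZ. P28 had the lowest level of all 4 dehydrins after 1 day. No P28 against HHZ difference of the 4 was called (adjusted p of 0.133 to 0.643, limma). An unadjusted p under 0.05 was found for 2 of the 4 and for 4147 of the 20568 genes tested.

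Genes of the lists were compared between genotypes too. For H471 against HHZ, limma called 0 of the 14 precursor, 2 xanthophyll, 6 cytosolic and 4 dehydrin genes, against 0.224% of all genes. Of these genes, 3 had an unadjusted p under 0.05, as had 1386 of the 20568 genes tested. For P28 against HHZ limma called 1 of these genes, against 6.64% of all genes. It was the beta-carotene hydroxylase LOC_Os10g38940 at -0.96 (adjusted p = 0.0309, limma), a gene named here after its values were seen. That gene had 2.43 FPKM in P28 and 5.40 FPKM in HHZ after 1 day.

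Each of the 8 genes was also matched with the genes whose levels were most like its own over the 9 columns, by Pearson's r of log2(FPKM + 1) among 8967 described genes with a mean of at least 10 FPKM. The columns fall into 3 conditions, so r mostly reflects the order of the conditions. Between 21 genes, for LOC_Os04g37619, and 317 genes, for LOC_Os08g36860, had r above 0.95. The nearest to LOC_Os07g05940 were a diacylglycerol kinase match (LOC_Os12g12260, r = 0.999) and the heat shock protein HSP90.1 match LOC_Os04g01740 (r = 0.996), which ranged from 0.0684 to 57.1 FPKM. LOC_Os08g36860 was most like a DNAJ heat shock protein (LOC_Os05g48810, r = 0.998) and a ubiquitin-like protein (LOC_Os07g31540, r = 0.996).

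LOC_Os03g44380 was most like the CID9 match LOC_Os02g14760 and the calcium sensor CBL10 match LOC_Os01g51420 (r = 0.993 for both). The nearest to LOC_Os02g47510 were a thioredoxin family gene (LOC_Os08g44400, r = 0.991) and a polyketide cyclase family gene (LOC_Os01g10210, r = 0.991). For LOC_Os12g42280 they were a carboxylesterase match (LOC_Os09g28650, r = 0.985) and a RING/U-box gene (LOC_Os07g43740, r = 0.983). LOC_Os02g47470 lay nearest to a TauE/SafE sulfite exporter family gene (LOC_Os03g51650, r = 0.985) and a UDP-glucose dehydrogenase family gene (LOC_Os12g25690, r = 0.979). LOC_Os09g28390 lay nearest to the ALY3 match LOC_Os03g43800 (r = 0.987) and to the aquaporin PIP1;4 match LOC_Os02g57720 (r = 0.983). LOC_Os04g37619 was most like the FRL1 match LOC_Os03g09310 (r = 0.974) and LOC_Os03g55130, of unknown function (r = 0.970).

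Among the 8 genes themselves, r was highest between LOC_Os02g47510 and the hydroxylase LOC_Os09g28390, at 0.95, and next between LOC_Os03g44380 and the hydroxylase LOC_Os02g47470, at 0.94. LOC_Os03g44380 and LOC_Os12g42280, which share a best match in Arabidopsis, had r = -0.35. LOC_Os02g47510 and LOC_Os02g47470, whose locus numbers lie close together on chromosome 2, had r = 0.90. These values describe 9 pooled columns and carry no p.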

How the data were processed

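Leaf RNA was freed of ribosomal RNA and sequenced from both fragment ends. The authors mapped the trimmed reads with TopHat to the MSU rice genome and deposited FPKM values made by Cufflinks with its bias and multi-read options. No tool version is given in the sources used here. Each column pools 2 libraries. All 9 columns were matched by their headers, and 0 were left unmapped. Depth cannot be read from the values: among genes below 0.2 FPKM, only 6.31% to 10.3% shared the commonest ratio between a pair of columns, so whole reads were not recovered.

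Genes with at least 1 FPKM in some column were kept, 1 was added and log2 was taken. limma 3.58.1 in R 4.3.3 (empirical Bayes with a trend) gave adjusted p-values over 20568 genes, and the fit was tested on simulated data. Tables and figures used Python 3.11.15, numpy 2.4.6, pandas 2.3.3 and matplotlib 3.10.9. Alternatives changed the pseudocount, the filter, the scaling, the trend and the columns fitted. All 8 genes were named. From each pathway list the 2 largest and 2 smallest differences among genes with at least 5 FPKM were named, and for each of the 8 genes the 2 most alike genes. The 8 genes and the lists were chosen with earlier results of these data known. Rice names came from RefSeq synonyms. Hormone contents and quantitative PCR were not analysed here.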

Additional observations from a re-analysis of the deposited data

Results flagged for a closer look

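Seed storage genes, which no comparison of the report is about, were raised in 1 of the 9 columns fitted. The glutelin gene LOC_Os01g55690 had 31.6 FPKM in HHZ after 1 day of drought, and at most 1.01 FPKM in the other 8 columns. The glutelin gene LOC_Os10g26060 had 21.3 FPKM in the same column and 3.11 to 4.95 FPKM elsewhere. Other kept genes with the same best Arabidopsis match were also highest in this column. Among them, LOC_Os03g31360 had 15.4 FPKM there and at most 0.239 FPKM elsewhere. Glutelins are storage proteins of the rice grain, and leaves are not known for them. Without the 3 columns of HHZ, limma still called 7 of the 8 ABA genes after 1 day. The part of this signal in the HHZ values was not tested.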

How the results depend on the processing

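No paired analysis was possible because the 2 libraries of a group are pooled in 1 column. Of the 8 ABA genes, limma called 7 after 1 day in every setting run, 5 to 7 after 3 days, 5 to 7 for 3 days against 1 day, and 0 for either genotype comparison. With columns left out, 6767 to 7904 genes were called for 3 days against 1 day (10230 with all columns) and 337 to 518 for P28 against HHZ (1366). For H471 against HHZ (46, 80.4% higher) the number was 77 without control (44.2% higher), 1 without day 1 and 0 without day 3. With 0.1 added to FPKM, 3 of the 8 genes passed the size rule upwards in all genotypes after 3 days and 1 passed it for H471 against HHZ after 3 days. Signs turned only for values that were not called. For LOC_Os12g42280 after 1 day they were 0.010 under median-of-ratios scaling and -0.12 to 0.10 with a genotype left out. For H471 against HHZ, LOC_Os08g36860 had 0.0057 under that scaling. With a condition left out, it had -0.10 to 0.063 (0.0017 without day 3), LOC_Os02g47470 -0.23 to 0.38, LOC_Os09g28390 -0.22 to 0.23 and LOC_Os07g05940 -0.37 to 0.099. For P28 against HHZ, LOC_Os08g36860 had -0.018 to 0.14. The cause was not tested. FPKM without counts gives no limit of detection, so levels near 0 have no interval.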
